A study of Mus musculus with 6 samples.

Results

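A set of 10 genes of the unfolded protein response and the integrated stress response was followed in whole liver of mice with diet-induced NASH, out of 27381 genes on the arrays. They are Herpud1, Hspa5, Dnajb9, Sdf2l1, Xbp1, Atf4, Ddit3, Atf3, Trib3 and Asns, chosen by symbol with earlier results of the same contrast known, and each of the 10 matched 1 Entrez gene on the array. Wild-type C57BL/6J mice, males by the paper's account of its diet model, began the NASH diet, in which palm oil fat gave 40% of the energy and fructose 20%, with 2% cholesterol added, at 10 weeks of age and stayed on it for 32 weeks. After 20 weeks they received AAV-Glrx or AAV control intraperitoneally at 1e+12 vector genomes, and livers were taken 12 weeks later. AAV-Glrx carries tagged mouse Glrx under the hepatocyte-specific promoter of Serpina7, and AAV control carries the same promoter with an empty cassette, so both groups shared the virus and the diet. The arrays used here hold no chow-fed or uninjected liver. Each group had 5 or 6 mice, whose liver RNA was combined into 3 pools, 1 array each (Affymetrix Mouse Gene 2.0 ST). How the mice were divided is not given, so a pool may hold a single mouse. Values are log2 expression, and since each gene has its own probes, a level is compared only with the same gene on other arrays.

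The endoplasmic reticulum (ER) folds secreted proteins, of which hepatocytes make large amounts. When unfolded proteins build up there, the sensors IRE1, PERK and ATF6 start the unfolded protein response. IRE1 splices Xbp1 mRNA, ATF6 is cut into a transcription factor, and both switch on chaperones and degradation factors. PERK phosphorylates eIF2 alpha, as do kinases that sense amino acid shortage, heme or double-stranded RNA, and this integrated stress response favors translation of ATF4 and, through it, Ddit3, Atf3, Trib3 and Asns. Saturated fat and cholesterol are known to load this system in fatty liver. Splicing of Xbp1, phosphorylation of eIF2 alpha and translation of Atf4 do not show in a single mRNA value per gene.

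Promoters of genes in these pathways are known to carry short elements that the factors bind. Promoters of 5 members are shown as the 150 bases before the RefSeq start site (build GRCm38.p6), 5′ to 3′ on the strand of the gene, with complete elements in capitals: the 2 genes whose groups separated in the arrays (Herpud1 and Dnajb9), the chaperone gene Hspa5, and the ATF4 targets Atf3 and Asns.
Herpud1, chr8:94386279-94386428, + strand: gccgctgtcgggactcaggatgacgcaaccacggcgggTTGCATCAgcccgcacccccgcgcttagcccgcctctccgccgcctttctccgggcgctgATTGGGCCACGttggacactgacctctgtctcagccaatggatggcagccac
Dnajb9, chr12:44210069-44210218, - strand: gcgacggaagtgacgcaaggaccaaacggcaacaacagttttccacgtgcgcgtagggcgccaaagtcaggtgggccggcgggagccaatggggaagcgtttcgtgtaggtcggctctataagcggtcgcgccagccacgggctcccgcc
Hspa5, chr2:34771940-34772089, + strand: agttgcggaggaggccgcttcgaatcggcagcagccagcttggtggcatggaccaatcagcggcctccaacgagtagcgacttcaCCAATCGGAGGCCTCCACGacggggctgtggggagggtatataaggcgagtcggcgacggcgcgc
Atf3, chr1:191183334-191183483, - strand: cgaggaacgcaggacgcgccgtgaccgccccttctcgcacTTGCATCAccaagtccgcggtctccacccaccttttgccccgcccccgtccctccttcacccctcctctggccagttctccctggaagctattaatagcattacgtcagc
Asns, chr6:7693210-7693359, - strand: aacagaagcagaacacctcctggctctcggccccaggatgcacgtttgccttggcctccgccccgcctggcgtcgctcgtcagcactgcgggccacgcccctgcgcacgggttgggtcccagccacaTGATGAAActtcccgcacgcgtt

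The RefSeq windows searched ran from 250 bases before to 50 bases after each start, on both strands, and all 10 members had 1. The ER stress element (ERSE), which is CCAAT followed after 9 free bases by CCACG and is bound by ATF6 with NF-Y, was found in Hspa5 alone among the members, with its first base at -65 from the start, and in 0.119% of 32817 promoter windows. The shorter ERSE-II, ATTGG and CCACG with 1 free base between, was found in Herpud1 alone, at -52, and in 0.0366% of windows. Herpud1 also held a C/EBP-ATF response element (CARE, TGATGNAA), the kind of site that ATF4 binds with C/EBP proteins, at -112. The same letters stood at -110 in Atf3, on the strand opposite to the gene as in Herpud1, and CARE matches lay at -23 in Asns and at 15 in Trib3, so 4 of 10 members held it, against 3.97% of windows. Dnajb9, Sdf2l1, Xbp1, Atf4 and Ddit3 held no complete element in this window. Dnajb9 had CCACG, the end of the ERSE, at -108 and -15, and a CCAAT box, the NF-Y site within the ERSE, at -65. CCACG occurred in 6 of 10 members and 32.8% of windows, and CCAAT in 7 of 10 members and 37.4%; matches inside a complete element are counted in both. No member held TGACGTGG, the core bound by XBP1 (0.676% of windows), or TGACGTCA, the cyclic AMP response element (1.79%). These are matches of letters and not measured sites.

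**Figure D1:**
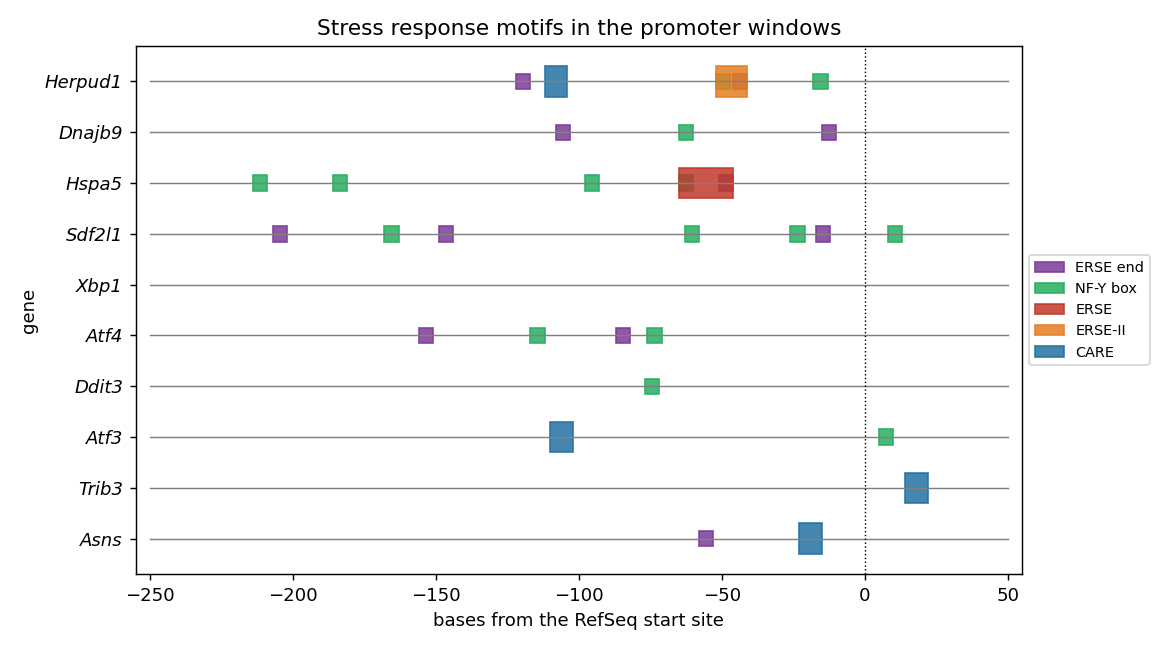
Motif matches in the promoter windows of the 10 members. The x axis gives bases from the RefSeq start site and each row is a gene, with boxes for the ERSE, the ERSE-II, the CARE, the end of the ERSE and the NF-Y box. Herpud1 has an ERSE-II at -52 and a CARE at -112, Hspa5 has an ERSE at -65, and Dnajb9 has only the shorter matches.

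The arrays had been brought to a common distribution by the normalization, so their medians were bound to be close. The median log2 value was 3.893 to 3.935 in AAV-Glrx and 3.928 to 3.949 in AAV control, and pairs of arrays correlated across genes at a Pearson's r of 0.987 to 0.991. Glrx itself was 6.60, 7.77 and 7.24 in AAV-Glrx, against 6.11, 6.03 and 5.66 in AAV control, a value that does not separate vector from own mRNA. The 2 groups were compared in a linear model with limma over all genes, with Benjamini-Hochberg adjustment. Of 27381 genes, 1 had an adjusted p under 0.1 (0.00365%). It was Zbtb16, a transcription factor gene and no member of the 10, at a log2 fold change of -2.12 (SE 0.18, adjusted p = 0.0896), and 0 genes passed without AAV control 2, AAV control 3, AAV-Glrx 1 or AAV-Glrx 3. Since the members were chosen with this contrast known, their differences are given below as log2 fold changes (AAV-Glrx minus AAV control) with the standard error (SE) and 95% interval of that model, as a description and without a test.

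Herpud1 and Dnajb9 were the 2 members whose groups did not overlap, and both were lower in AAV-Glrx. Herpud1 encodes a membrane protein of the ER that organizes ER-associated degradation, and Dnajb9 encodes ERdj4, a J-domain cochaperone that works with BiP and holds IRE1 in check. Herpud1 was 8.83, 8.87 and 8.71 in AAV-Glrx 1, 2 and 3, against 9.21, 9.28 and 9.29 in AAV control 1, 2 and 3. All AAV-Glrx pools lay below all AAV control pools, with a gap of 0.34 between the nearest values and a range of only 0.16 within AAV-Glrx and 0.08 within AAV control. Its log2 fold change was -0.46 (SE 0.09, 95% interval -0.66 to -0.26), or 1.37-fold lower. In whole liver, fewer cells of a type and less RNA per cell cannot be told apart. Dnajb9 was 6.37, 6.57 and 6.16 in AAV-Glrx, against 7.15, 6.76 and 6.95 in AAV control. Its gap was narrower at 0.19, and its pools spread more, over 0.42 in AAV-Glrx and 0.39 in AAV control. Its log2 fold change was -0.59 (SE 0.14, 95% interval -0.92 to -0.26), or 1.5-fold lower. Over all genes, 5.38% were lower in AAV-Glrx with no overlap and 5.51% higher with no overlap, against 2 and 0 of the 10 members.

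The other genes known as targets of ATF6 and XBP1, Hspa5 and Sdf2l1, did not separate the groups. Hspa5 encodes BiP, the abundant chaperone of the ER lumen that keeps the stress sensors inactive. It was 10.50, 10.39 and 10.03 in AAV-Glrx, against 10.69, 10.07 and 10.55 in AAV control. The groups overlapped, since AAV control 2 lay nearly as low as AAV-Glrx 3, and the log2 fold change was -0.13 (SE 0.19, 95% interval -0.56 to 0.30). It was 0.01 without AAV-Glrx 3 and -0.32 without AAV control 2. Sdf2l1, which encodes a partner of ER J-domain proteins, was 6.34, 6.01 and 5.91 in AAV-Glrx, against 6.27, 5.85 and 5.81 in AAV control. In both groups the pool numbered 1 was the highest, and nothing in the labels says that the numbers pair the pools. The log2 fold change was 0.11 (SE 0.16, 95% interval -0.26 to 0.49), and it was -0.01 without AAV-Glrx 1.

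**Figure D2:**
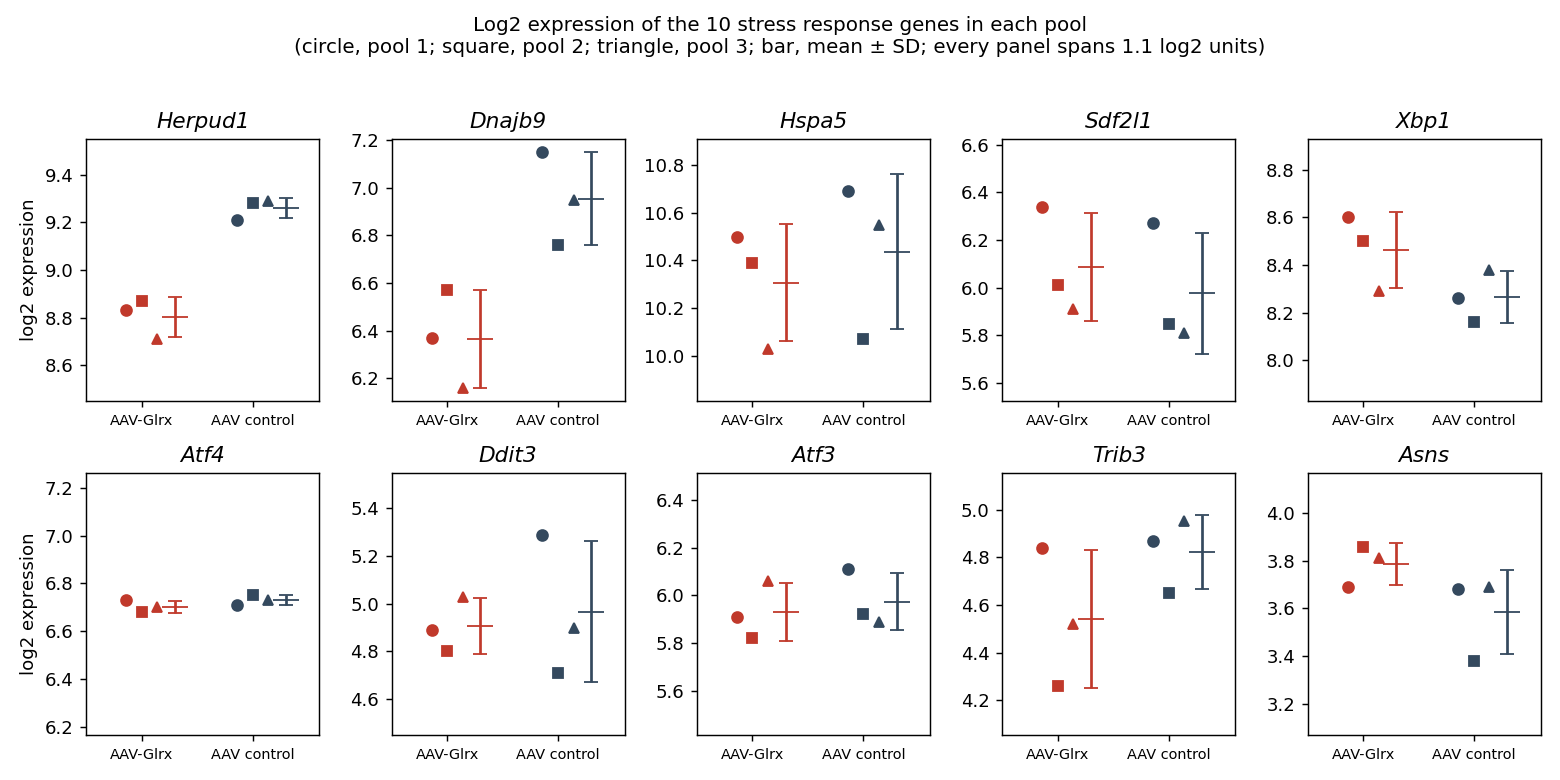
Log2 expression of the 10 members in each pool, AAV-Glrx on the left and AAV control on the right of every panel, with the mean and SD of 3 pools beside the points. Every panel spans the same number of log2 units, and the groups separate in Herpud1 (8.71 to 8.87 in AAV-Glrx, 9.21 to 9.29 in AAV control) and Dnajb9 (6.16 to 6.57 in AAV-Glrx, 6.76 to 7.15 in AAV control).

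The mRNAs of the transcription factors differed little between the groups. Atf4, which encodes the main effector of the integrated stress response, was 6.73, 6.68 and 6.70 in AAV-Glrx and 6.71, 6.75 and 6.73 in AAV control. It was the steadiest member, with a residual SD of 0.024, smaller than in all but 0.383% of genes, and its log2 fold change was -0.03 (SE 0.08, 95% interval -0.21 to 0.16). Control of ATF4 is largely at translation, which arrays do not measure. Ddit3, which encodes the proapoptotic factor CHOP, was 4.89, 4.80 and 5.03 in AAV-Glrx and 5.29, 4.71 and 4.90 in AAV control. AAV control 1 was the highest and AAV control 2 the lowest of the 6 pools, so the AAV-Glrx pools lay within the spread of AAV control. The log2 fold change of Ddit3 was -0.06 (SE 0.15, 95% interval -0.41 to 0.30), 0.10 without AAV control 1 and 0.00 without AAV-Glrx 2. Atf3, a stress-induced factor of the same bZIP class, was 5.91, 5.82 and 6.06 in AAV-Glrx and 6.11, 5.92 and 5.89 in AAV control, a log2 fold change of -0.04 (SE 0.11, 95% interval -0.29 to 0.20). It was 0.03 without AAV control 1 and 0.01 without AAV-Glrx 2. AAV control 1 was the highest of the 6 pools for Ddit3 and for Atf3, and AAV-Glrx 3 was the highest of its group for each.

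Xbp1 had a higher mean in AAV-Glrx, opposite in sign to Herpud1 and Dnajb9, genes known to respond to its spliced form. It was 8.60, 8.50 and 8.29 in AAV-Glrx, against 8.26, 8.16 and 8.38 in AAV control. AAV-Glrx 1 and 2 lay above every AAV control pool and AAV-Glrx 3 among them. The log2 fold change was 0.19 (SE 0.11, 95% interval -0.07 to 0.45), and 0.28 without AAV-Glrx 3. The value covers unspliced and spliced mRNA together.

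The 2 effectors downstream of ATF4 pointed in opposite directions, each with overlapping groups. Trib3 encodes a pseudokinase that binds AKT and dampens ATF4 and CHOP, and Asns encodes asparagine synthetase, which the amino acid response induces. Trib3 was 4.84, 4.26 and 4.52 in AAV-Glrx, against 4.87, 4.65 and 4.95 in AAV control. The low AAV-Glrx 2 carried part of the difference of -0.28 (SE 0.16, 95% interval -0.65 to 0.08), which was -0.14 without that pool and -0.43 without AAV-Glrx 1. Asns was 3.69, 3.86 and 3.81 in AAV-Glrx, against 3.68, 3.38 and 3.69 in AAV control. AAV-Glrx 1 and AAV control 3 met at 3.69, and the log2 fold change of 0.20 (SE 0.11, 95% interval -0.06 to 0.46) was 0.10 without the low AAV control 2. Asns was the single member below the median level of all genes.

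Over the 10 members, 7 had a lower mean in AAV-Glrx, where 50.5% of all genes did, and the median log2 fold change was -0.05, against -0.00122 over all genes. That median rested on single arrays, at 0.01 without AAV control 1, -0.13 without AAV control 2, -0.08 without AAV control 3 and -0.01 without AAV-Glrx 2. At an unadjusted p under 0.05 in limma, 2 members, Herpud1 and Dnajb9, were lower and 0 higher, where 3.01% of all genes were lower and 2.76% higher. Because these members were picked from the same contrast, nothing is read from those counts. The 4 genes that ATF6 and XBP1 are known to induce (Herpud1, Dnajb9, Hspa5 and Sdf2l1) had a median log2 fold change of -0.30, the 4 transcription factors -0.03, and Trib3 with Asns -0.04. The -0.30 lies midway between Herpud1 (-0.46) and Hspa5 (-0.13), and the -0.04 between Trib3 (-0.28) and Asns (0.20). In the wider lists below, without the members, the median was 0.03 for ER chaperones, 0.00 for ER-associated degradation and 0.02 for the XBP1 secretory pathway.

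**Figure D3:**
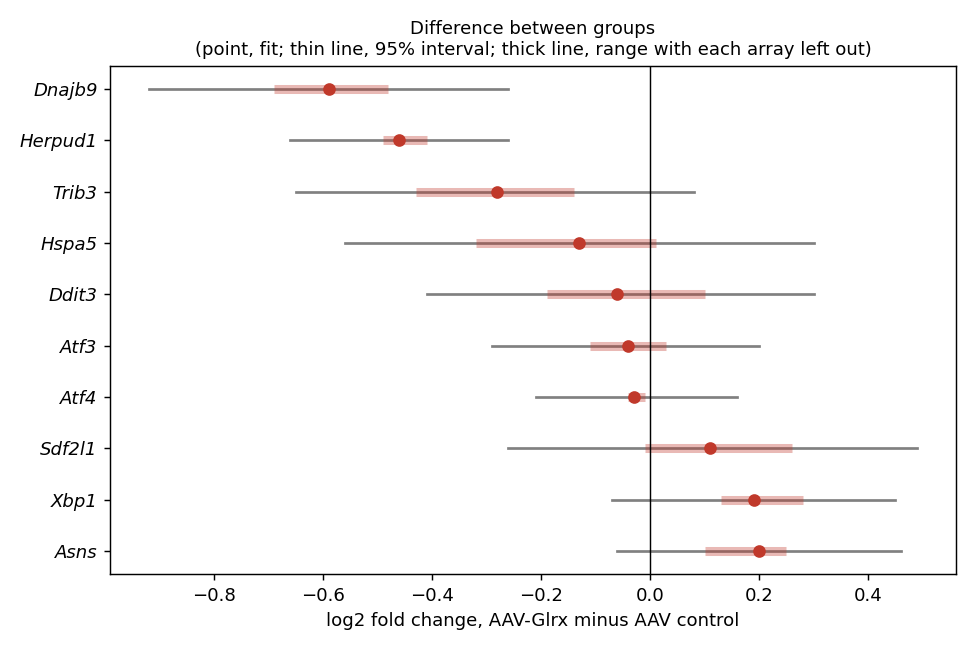
Log2 fold change of each member, AAV-Glrx minus AAV control. Points are the fitted values from 3 pools per group, thin lines the 95% intervals, and thick lines the range when each array was left out in turn. The intervals of Dnajb9 (-0.92 to -0.26) and Herpud1 (-0.66 to -0.26) lie below 0 and those of the other 8 members span it.

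Within the groups, the ER chaperones varied together from pool to pool. For Hspa5, AAV control 1 was the highest and AAV control 2 the lowest of the controls, and AAV-Glrx 3 was the lowest of its group. Of the 21 other measured genes for ER chaperones and folding enzymes, 14 (66.7%) showed this same arrangement, against 6.18% of all genes. It was also found in 10 of 24 other genes of ER-associated degradation (41.7%) and in 8 of 25 genes of the secretory pathway under XBP1 (32.0%). In the remaining lists it was found in 5 of 28 ATF4 targets for amino acids and tRNA charging (17.9%) and 2 of 12 stress sensor genes (16.7%). The stress targets of ATF4 and CHOP held it in 1 of 17 (5.88%), and the eIF2 regulators in 0 of 12. The arrangement was chosen after the values of Hspa5 were seen, so these shares are a description. Among all genes, AAV control 1 was the highest control in 33.4%, AAV control 2 the lowest control in 33.1% and AAV-Glrx 3 the lowest of its group in 33.2%.

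Hyou1, which encodes the nucleotide exchange factor of BiP, was 8.44, 8.45 and 7.82 in AAV-Glrx and 8.59, 7.87 and 8.29 in AAV control. Creld2, which encodes an ER stress protein, was 7.39, 7.21 and 6.57 in AAV-Glrx and 7.56, 6.73 and 7.38 in AAV control. In both genes the spread within a group exceeded the difference between groups, at log2 fold changes of -0.02 (SE 0.22) and -0.17 (SE 0.27). Hsp90b1, the ER member of the HSP90 family, Calr, the lectin chaperone calreticulin, and Pdia4, a disulfide isomerase, had the same arrangement at log2 fold changes of -0.05 (SE 0.11), -0.03 (SE 0.11) and 0.07 (SE 0.11). Hyou1, Hsp90b1, Calr and Pdia4 were chosen after their values were seen. Among the members, Dnajb9 shared the arrangement with Hspa5, on top of its difference between groups. Herpud1 did not, since AAV control 1 was its lowest control and its controls differed by no more than 0.08.

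**Figure D4:**
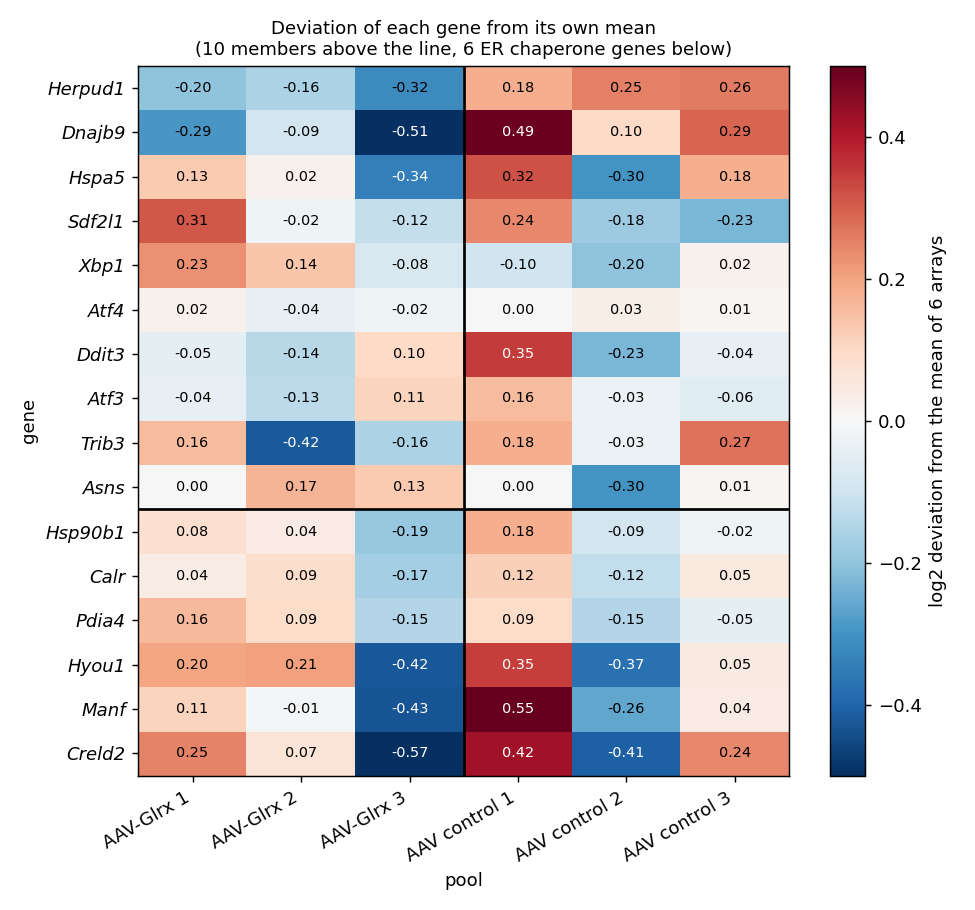
Deviation of each gene from its mean over 6 arrays, in log2 units, for the 10 members above the line and 6 ER chaperone genes below it, with AAV-Glrx pools on the left and AAV control pools on the right. Hspa5 and the 6 chaperone genes are low in AAV-Glrx 3 (Hspa5 at -0.34) and AAV control 2 (Hspa5 at -0.30) and high in AAV control 1 (Hspa5 at 0.32), while Herpud1 is low in every AAV-Glrx pool.

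The rest of the pathway was read from 7 wider lists with the members left out, 138 measured genes of 145, drawn up from general knowledge of the pathway. By limma over all genes, 0 of the 138 passed an adjusted p of 0.1 (smallest adjusted p = 0.847), and 5 were lower and 2 higher at an unadjusted p under 0.05, or 5.07%, where 5.77% of all genes were. The groups did not overlap in 6 lower and 10 higher genes of the 138, where 5.38% of all genes were lower and 5.51% higher without overlap, so genes named below as separating the groups are a description. The list medians lay between 0.00 and 0.06, and those of 4 lists took both signs as each array was left out. Values of named genes below are therefore differences that did not pass.

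Among 12 genes for stress sensors and the proteases that activate them, 5 had a lower mean and 7 a higher one (median 0.05). Eif2ak3, which encodes PERK, was 5.70, 5.80 and 5.66 in AAV-Glrx, against 6.24, 5.84 and 6.07 in AAV control, a log2 fold change of -0.33 (SE 0.12). Creb3l2, which encodes an ER-anchored factor related to ATF6, was 6.47, 6.57 and 6.17 in AAV-Glrx, against 7.09, 6.64 and 6.83 in AAV control, a log2 fold change of -0.45 (SE 0.15). Neither gene overlapped between the groups, and both had the arrangement of Hspa5 within them. Ern1, which encodes IRE1 alpha, and Mbtps1, which encodes the site-1 protease that cuts ATF6, were higher without overlap, at 0.15 (SE 0.09) and 0.14 (SE 0.09).

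Among 12 kinases, exchange factor subunits and phosphatase subunits that act on eIF2, 4 had a lower mean and 8 a higher one (median 0.06). Gcn1, the activator of the amino acid sensor GCN2, was at 0.18 (SE 0.09) and Ppp1r15b, the constitutive phosphatase subunit, at 0.16 (SE 0.09), both without overlap, although the nearest pools of Gcn1 stood at 6.36 in each group. Eif2ak4, which encodes GCN2, was at -0.13 (SE 0.10), and Eif2b3, of the exchange factor eIF2B, at -0.07 (SE 0.10). In this list 0 genes were lower without overlap.

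ER chaperones and folding enzymes numbered 21, of which 9 had a lower mean and 12 a higher one (median 0.03), and 0 separated the groups. The examples by p were Txndc5 at 0.14 (SE 0.09) and P4hb at 0.09 (SE 0.09), both disulfide isomerases, with Manf, a secreted ER stress factor, at -0.22 (SE 0.22) and Creld2. In ER-associated degradation 12 of 24 genes had a lower mean (median 0.00) and again 0 separated the groups. Syvn1, the ubiquitin ligase HRD1 that Herpud1 assists, was 6.78, 6.61 and 6.29 in AAV-Glrx, against 7.11, 6.52 and 6.99 in AAV control, a log2 fold change of -0.31 (SE 0.18). Its adaptor Sel1l was at -0.11 (SE 0.12), the lectin Os9 at 0.07 (SE 0.08) and the extracting ATPase Vcp at 0.16 (SE 0.14). The groups thus separated in none of the other measured genes of these lists for folding and degradation.

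In the secretory pathway under XBP1, 9 of 25 genes had a lower mean (median 0.02). Spcs1, of the signal peptidase, was at -0.17 (SE 0.09), Sec61b, of the translocon, at -0.24 (SE 0.14), Kdelr3, a receptor that returns ER proteins, at 0.29 (SE 0.17), and the isomerase gene Pdia5 at 0.21 (SE 0.14). Spcs1 was lower and Pdia5 higher without overlap.

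Of 17 regulators and stress targets of ATF4 and CHOP, 8 had a lower mean and 9 a higher one (median 0.01), with 2 lower and 3 higher without overlap. Cebpb, which encodes the partner of ATF4 at CARE sites, was 6.22, 6.38 and 6.31 in AAV-Glrx, against 6.45, 6.75 and 6.64 in AAV control, a log2 fold change of -0.31 (SE 0.10). Chac1, which degrades glutathione and is a sensitive target of ATF4, was at -0.27 (SE 0.13), with overlap. Bbc3, the proapoptotic gene PUMA, was at 0.33 (SE 0.13) and Stc2, a secreted glycoprotein gene, at 0.18 (SE 0.09), both without overlap.

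Of 28 ATF4 targets in amino acid synthesis, transport and tRNA charging, 9 had a lower mean and 19 a higher one (median 0.04). Cth, the last enzyme of cysteine synthesis from methionine, was 7.64, 7.41 and 7.54 in AAV-Glrx, against 7.91, 7.87 and 7.69 in AAV control, a log2 fold change of -0.29 (SE 0.10). Psph, of serine synthesis, was at -0.28 (SE 0.11), with overlap. The tRNA synthetase genes Aars, at 0.23 (SE 0.10), and Mars1, at 0.13 (SE 0.08), were higher without overlap, in the direction of Asns.

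**Figure D5:**
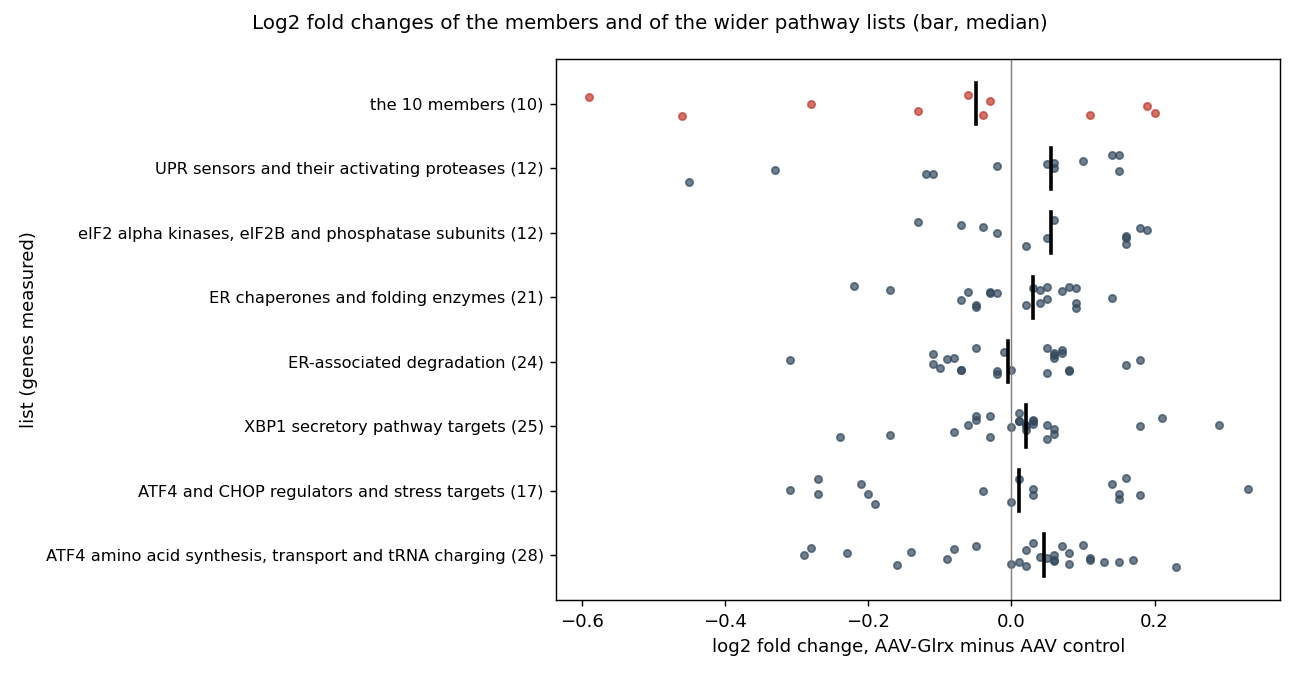
Log2 fold changes, AAV-Glrx minus AAV control, of the 10 members (top) and of the genes of 7 wider lists. Each point is a gene, and the bar marks the median. The medians lie between -0.05 and 0.06, and Dnajb9 (-0.59) and Herpud1 (-0.46) are the lowest points of the plot.

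Whole liver mixes cell types, whose markers were read beside the members. The hepatocyte markers, of which 11 of 12 were measured, averaged 10.83 to 10.86 in AAV-Glrx and 10.90 to 10.93 in AAV control on the log2 scale, without overlap, and 6 of 11 had a lower mean. The lowest of them, Asgr1, averaged 8.14. The largest differences were those of Tat, at -0.47 (SE 0.12), and Pck1, at -0.31 (SE 0.15). All other hepatocyte markers lay between -0.10 and 0.16, so the gap in the average rested on these 2 genes. Tat and Pck1 were chosen after their values were seen. Plasma cells, which use the XBP1 pathway heavily, had 9 of 10 markers with a lower mean. Their average was 4.61 to 5.77 in AAV-Glrx and 4.93 to 5.84 in AAV control, with AAV-Glrx 2 the lowest and AAV control 2 the highest pool. The lowest of these markers, Tnfrsf17, averaged 2.86, below the median level of all genes. Igkc, Ighm and Jchain, chosen after their values were seen, varied widely within the groups (SE 0.90, 0.88 and 0.80). Among the AAV control pools, AAV control 1 had the lowest plasma cell average, the lowest Herpud1 and the highest Dnajb9. AAV control 2 had the highest average and the lowest Dnajb9, while Herpud1 was highest in AAV control 3. Among the AAV-Glrx pools, AAV-Glrx 2 had the lowest average and the highest Herpud1 and Dnajb9. AAV-Glrx 3 had the highest average and the lowest Herpud1 and Dnajb9. For T and B lymphocytes (7 of 8 markers lower) the averages were 4.06 to 4.20 in AAV-Glrx and 4.23 to 4.45 in AAV control, without overlap. The averages nearly met, at 4.20 and 4.23, so the gap depended on single markers. The largest difference was that of the B cell gene Cd79a, at -0.61 (SE 0.21), chosen after its values were seen. The lowest lymphocyte marker, the T cell gene Cd3d, went the other way, at 0.20 (SE 0.10). It averaged 3.12, also below the median level of all genes. Macrophage markers (8 of 9 lower) averaged 6.57 to 6.90 in AAV-Glrx and 6.77 to 7.11 in AAV control. Stellate cell markers (4 of 10 lower) averaged 7.20 to 7.35 in AAV-Glrx and 7.23 to 7.39 in AAV control, and endothelial markers (4 of 8 lower) 7.21 to 7.34 in AAV-Glrx and 7.30 to 7.38 in AAV control.

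Stress genes outside the ER were read in the same way. Immediate early genes, which respond within minutes and can mark handling of tissue, averaged 5.37 to 5.51 in AAV-Glrx and 5.45 to 5.56 in AAV control (7 of 10 lower). Cytosolic heat shock genes averaged 5.93 to 6.12 in AAV-Glrx and 6.13 to 6.27 in AAV control, without overlap (8 of 10 lower, median log2 fold change -0.16). The averages nearly met, at 6.12 and 6.13, so the gap depended on single genes. The largest difference was that of Hspa1b, at -0.84 (SE 0.17). Hspd1, at 0.12 (SE 0.09), and Hsp90aa1, at 0.03 (SE 0.18), had a higher mean. Hspa8, the constitutive cytosolic HSP70, was 10.63, 10.51 and 10.46 in AAV-Glrx, against 10.88, 10.83 and 10.74 in AAV control. The part of these cell types and stress genes in the values of Herpud1 and Dnajb9 was not tested. Hspa8, Hspa1b, Hspd1 and Hsp90aa1 were chosen after their values were seen.

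The mean deviation of the 10 members was 0.03, -0.07 and -0.12 in AAV-Glrx and 0.18, -0.09 and 0.07 in AAV control, and the genes closest to it among 20814 ranked (genes with a symbol, without the members and predicted Gm and Rik names) were Lat, Mageb18 and Prmt8. Their Pearson's r over the 6 arrays was 0.993, 0.989 and 0.987. With so few arrays such values are found by searching many genes, and Mageb18 and Prmt8 lay between 1.45 and 2.72, at the low end of the arrays.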

How the data were processed

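Whole liver RNA from 6 pools, 3 per group, was measured on Affymetrix arrays. Values were made by the authors with Robust Multiarray Average (RMA) normalization, per the submitters' processing notes in affy 1.61.0 under R 3.6.0, with Entrez gene probe definitions, and deposited 1 log2 expression value per gene. RMA brings all arrays to 1 distribution, so a shift of most genes together would not show. The values ran from 0.807 to 12.9 with a median of 3.929. No source used here names the genome build behind the probes, and promoter coordinates are those of RefSeq on GRCm38.p6. Symbols come from the platform annotation (26794 of 27381 genes, 587 unnamed), and 2 listed symbols were updated through RefSeq synonyms.

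The log2 values were used unfiltered and fitted in limma 3.58.1 (lmFit, eBayes; R 4.3.3) without covariates. Benjamini-Hochberg adjustment ran over 27381 genes, and 95% intervals used the 7.79 moderated degrees of freedom. The number of arrays limits the precision, and no two-sided exact permutation test of 3 against 3 arrays can go below p = 0.1. Nothing states how mice were divided among pools, so the spread may be partly technical, and array batches are not named in those sources. The steps were tested on simulated data, in 10 runs with 200 of 27381 genes changed. At an adjusted p under 0.1 in limma, 30.2% of genes changed by a log2 value of 0.5 were recovered, and 79.6% of those changed by 1. Most of the changed genes were given changes larger than 0.5, which makes the adjusted threshold easier to pass. In the real data only 1 gene passed, so recovery there may be lower. Failing to pass therefore does not show that a gene was unchanged. The members and lists were chosen with earlier results of these data known. Named genes are the members and, in each wider list, the 2 higher and 2 lower genes with the smallest p, with the 3 genes whose profile was nearest to the mean of the members. Genes outside this rule are said to be chosen after their values were seen. Lists of 8 cell types or other stress responses were also read. The alternatives were an intensity trend or robust prior, median centring, another quantile normalization, a filter on dim genes, array weights, a replicate block and leaving out each array.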

Additional observations from a re-analysis of the deposited data

How the results depend on the processing

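Herpud1 and Dnajb9 had a lower mean and separate groups under all 13 alternatives, with log2 fold changes of -0.49 to -0.41 and -0.69 to -0.48. For most of these the separation was fixed in advance. Leaving out an array cannot make separate groups overlap. The intensity trend, robust prior, array weights, replicate block and filter on dim genes use the same values. Only median centring and another quantile normalization changed the values, and the groups stayed separate under both. The intensity trend, robust prior, replicate block and filter also leave each log2 fold change as it was, so they could turn no sign. Median centring, another quantile normalization and array weights could have done so. They turned the sign of no member and left 7 members with a lower mean. With an array left out, 5 to 8 members had a lower mean, 2 to 4 were lower without overlap (4 without AAV control 2, as Hspa5 and Trib3 joined, and 4 without AAV-Glrx 1, as Trib3 and Atf4 joined), and 0 to 2 were higher without overlap (2 without AAV control 3, and 1 without AAV control 1, AAV-Glrx 1 or AAV-Glrx 3). Hspa5, Ddit3, Atf3 and Sdf2l1 reached 0 or the opposite sign in this way, between -0.32 and 0.01, -0.19 and 0.10, -0.11 and 0.03, and -0.01 and 0.26. The filter on dim genes removed Asns. The list medians for stress sensors and for eIF2 regulators were 0.01 to 0.07 and 0.02 to 0.10 with an array left out. The medians of ER chaperones (-0.05 to 0.10), ER-associated degradation (-0.03 to 0.03), the XBP1 secretory pathway (-0.04 to 0.07) and targets of ATF4 and CHOP (-0.05 to 0.05) took both signs, and that of the amino acid genes was 0.00 to 0.07. The median of the members was -0.13 to 0.01.

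The count of all genes at an adjusted p under 0.1 was 1, and it was 0 after another quantile normalization, 0 with the replicate block and 0 to 2 with an array left out (2 without AAV control 1, and 0 without AAV control 2, AAV control 3, AAV-Glrx 1 or AAV-Glrx 3). The cause was not tested. Nothing in the labels says what the replicate numbers stand for. Over all genes, deviations of pools with the same number correlated at -0.0361, -0.171 and 0.0205. Such values cannot show whether these pools shared a step that affected some genes, which was not tested. Among the members and the genes named from the wider lists, Asns, Bbc3, Psph and Kdelr3 averaged below the median level of all genes. So did other genes counted in the wider lists and several of the cell type markers. How near the probes of such genes are to background was not measured.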
